A study of Mus musculus with 21 samples.

Results

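The 10 genes Gfap, Vim, Serpina3n, Lcn2, Osmr, Cp, Cd44, Steap4, Ptx3 and S100a10 are known from mouse brain injury as genes that astrocytes raise when they become reactive. They were chosen by name, with earlier results of these data known. All 10 were found among the 24411 genes of each of 2 deposited tables, 1 per experiment, covering 21 hippocampal RNA libraries of male wild-type mice. For the depletion experiment, old animals (22 to 24 months) were injected every 4 days with a CD8a antibody (n = 5) or with its rat isotype control, IgG2b (n = 5), and the strain is not named for them. In the transfer experiment, B6.SJL-Ptprca Pepcb/BoyJ recipients aged 4 months were injected with CD8+ T cells from spleen and blood of C57BL/6J donors, as 300000 and later 3000000 cells. The donors were 22 to 28 months old for the 5 recipients of aged cells (aged T) and 3 to 4 months old for the 6 recipients of young cells (young T). Both transfer groups had first been given the CD8a antibody on days -11 and -7, so neither is a group with untouched CD8+ T cells. After perfusion, the hippocampus of a single hemisphere was sequenced as bulk tissue, in which more cells of a type and more RNA per cell cannot be told apart. The labels do not say that each library is a separate animal, so p-values measure the spread between these libraries only.

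Astrocytes are the glial cells that supply neurons with nutrients, clear transmitter from synapses and cover vessels with their end-feet. After injury, infection or ageing they enlarge, build more intermediate filament and switch on secreted and surface proteins, a state called reactive. Cytokines of the interleukin-6 and oncostatin M family acting through the transcription factor STAT3, and microglial signals such as interleukin-1 alpha, tumour necrosis factor and C1q acting in part through NF-kB, are known inducers in mouse. Gfap and Vim encode the filament proteins, and Ptx3, Serpina3n and Lcn2 encode secreted acute-phase proteins. Osmr encodes the oncostatin M receptor, Cp and Steap4 encode metal-handling enzymes, Cd44 encodes the hyaluronan receptor, and S100a10 encodes the partner of annexin A2. In mouse, most of these genes are raised by both neuroinflammation and ischaemia, whereas Ptx3 and S100a10 were described for ischaemia.

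The promoters of the 3 genes that stood out in the depletion experiment are shown because 2 of the pathways above end in known DNA motifs. Each is the 250 bases before and 20 after the transcription start in RefSeq (GRCm38.p6), 5′ to 3′ on the gene's strand, with the matched motif in capitals. The Gfap promoter lies at chr11:102897181-102897450 on the minus strand, and its capitals mark a STAT motif, TTCNNNGAA. The Vim promoter at chr2:13574061-13574330 and the Ptx3 promoter at chr3:66219637-66219906, both on the plus strand, carry an NF-kB-like motif in capitals, which in both is read on the opposite strand.
Gfap: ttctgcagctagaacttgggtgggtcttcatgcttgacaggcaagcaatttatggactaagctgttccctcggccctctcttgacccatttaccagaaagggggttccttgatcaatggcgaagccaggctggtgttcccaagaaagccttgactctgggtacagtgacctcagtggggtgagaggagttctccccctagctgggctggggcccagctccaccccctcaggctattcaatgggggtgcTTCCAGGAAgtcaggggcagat
Vim: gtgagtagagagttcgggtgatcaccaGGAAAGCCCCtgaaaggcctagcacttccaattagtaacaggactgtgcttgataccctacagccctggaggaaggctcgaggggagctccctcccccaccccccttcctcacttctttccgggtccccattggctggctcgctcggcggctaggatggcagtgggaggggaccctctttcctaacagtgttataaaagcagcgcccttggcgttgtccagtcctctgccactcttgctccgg
Ptx3: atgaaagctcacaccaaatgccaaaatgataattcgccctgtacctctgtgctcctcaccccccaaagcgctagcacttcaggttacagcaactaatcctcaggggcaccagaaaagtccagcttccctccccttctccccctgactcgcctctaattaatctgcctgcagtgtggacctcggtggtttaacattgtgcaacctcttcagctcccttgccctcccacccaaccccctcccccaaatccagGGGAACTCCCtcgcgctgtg

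The Gfap match began 2 bases before the start, the Vim match 223 bases before it, and the Ptx3 match at the start itself. Of the 10 genes, 9 had an entry with 10 promoters in all, since Cp has 2. Over windows of 300 bases and both strands, the STAT motif was found in 2 of these 10 promoters, those of Gfap and Steap4, and in 8.3% of all 32851 promoters. The NF-kB-like motif was found in 4 of 10, those of Vim, Ptx3, Steap4 and Serpina3n, and in 4.79% of all promoters. An interferon response motif was found in 0 of 10 and in 3.44% of all promoters. A match describes the letters of the window and is not a bound site.

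Read totals per library ran between 9957822 and 12136146 under CD8a antibody and between 11103024 and 14375029 under IgG2b. They ran between 12361933 and 15055422 for aged T and between 11232442 and 14911138 for young T. Values are normalized counts, the reads of a gene divided by 1 size factor per library. Markers that define astrocytes were present in every library: 20 astrocyte identity genes summed to 118146 to 211903 normalized counts with the antibody and 129616 to 148178 with IgG2b. CD8a antibody replicate 5 stood apart on the first principal component, which held 24.6% of the variance, at 57.3 against -28.2 to -9.97 for the other antibody libraries and -6.64 to 6.90 for IgG2b. That library was the lowest of its group in 5 of the 7 reactive astrocyte genes that were tested (Gfap, Vim, Osmr, Cp and Cd44). Values without that library are given below for these 5 genes and for Ptx3 and S100a10.

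In aged mice given the CD8a antibody, the mean level of the filament genes Gfap and Vim was 1.54-fold and 1.48-fold that with IgG2b, and the mean of the secreted pentraxin Ptx3 was 3.98-fold. With all libraries no tool called Vim or any of the other 7 genes. By limma over all tested genes, with calls at a Benjamini-Hochberg adjusted p under 0.05, 0 of the 7 genes whose mean reached 10 normalized counts were called, beside 0.00717% of all 13939 tested genes. At an unadjusted p under 0.05, 2 of the 7 were higher with the antibody and 0 were lower, beside 4.31% of all tested genes higher and 4.15% lower. DESeq2 on the recovered reads called Gfap and Ptx3 higher among the 9 genes that had an adjusted p, beside 0.214% of 14024 genes called higher and 0.442% lower. edgeR called neither, beside 0.00719% of its tested genes.

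Gfap (chr11:102887336-102900912, minus strand, GRCm38) encodes glial fibrillary acidic protein, the main filament protein of astrocytes. It had 11073, 14083, 8862, 10733 and 7944 normalized counts in the CD8a antibody libraries, against 6538, 8001, 6650, 6335 and 6709 in the IgG2b libraries. The groups met at 1 point only, where antibody replicate 5 lay just under IgG2b replicate 2, and 5 of 5 antibody libraries lay above the IgG2b median. The means were 10539 ± 2368 normalized counts with the antibody and 6847 ± 661 with IgG2b (SD, n = 5 each), a ratio of 1.54. The limma difference was 0.60 ± 0.14 (SE) on the log2(normalized count + 1) scale, with a 95% interval of 0.29 to 0.91 and an adjusted p of 0.245, rank 52 by p among 13939 genes. DESeq2 gave a log2 difference of 0.62 ± 0.15 (SE) with an adjusted p of 0.0133, edgeR an adjusted p of 0.212, and a two-sided exact permutation test on Gfap alone a p of 0.0159. With 1 library left out, the limma difference was 0.49 to 0.69 (adjusted p 0.0487 to 0.577), and without antibody replicate 5 its adjusted p was 0.0487. It was smallest, 0.49, without antibody replicate 2, which had the highest Gfap and the highest astrocyte identity sum (211903). The DESeq2 call was kept in 6 of 10 such fits, and was lost without antibody replicate 1 (adjusted p = 0.0836) or IgG2b replicate 3 (0.0960), 4 (0.0866) or 5 (0.0707).

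Vim (chr2:13573927-13582826, plus strand) encodes vimentin, the partner filament protein of reactive astrocytes, which endothelial cells and fibroblasts also make. Its normalized counts were 854, 720, 763, 798 and 545 with the CD8a antibody, against 423, 471, 492, 428 and 679 with IgG2b. The groups crossed only at replicate 5 of each, the lowest antibody library and the highest IgG2b library. Vim averaged 736 ± 118 with the antibody and 499 ± 105 with IgG2b (SD, n = 5 each), a limma difference of 0.57 ± 0.15 (SE) on the log2 scale with an adjusted p of 0.300. DESeq2 gave an adjusted p of 0.0697 with all libraries, 0.00150 without antibody replicate 5 and 0.00508 without IgG2b replicate 5, and 0.0847 to 0.282 in the 8 fits that left out another library. By limma the adjusted p for Vim without antibody replicate 5 was 0.0517. The two-sided exact permutation p for Vim alone was 0.0159.

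**Figure D1:**
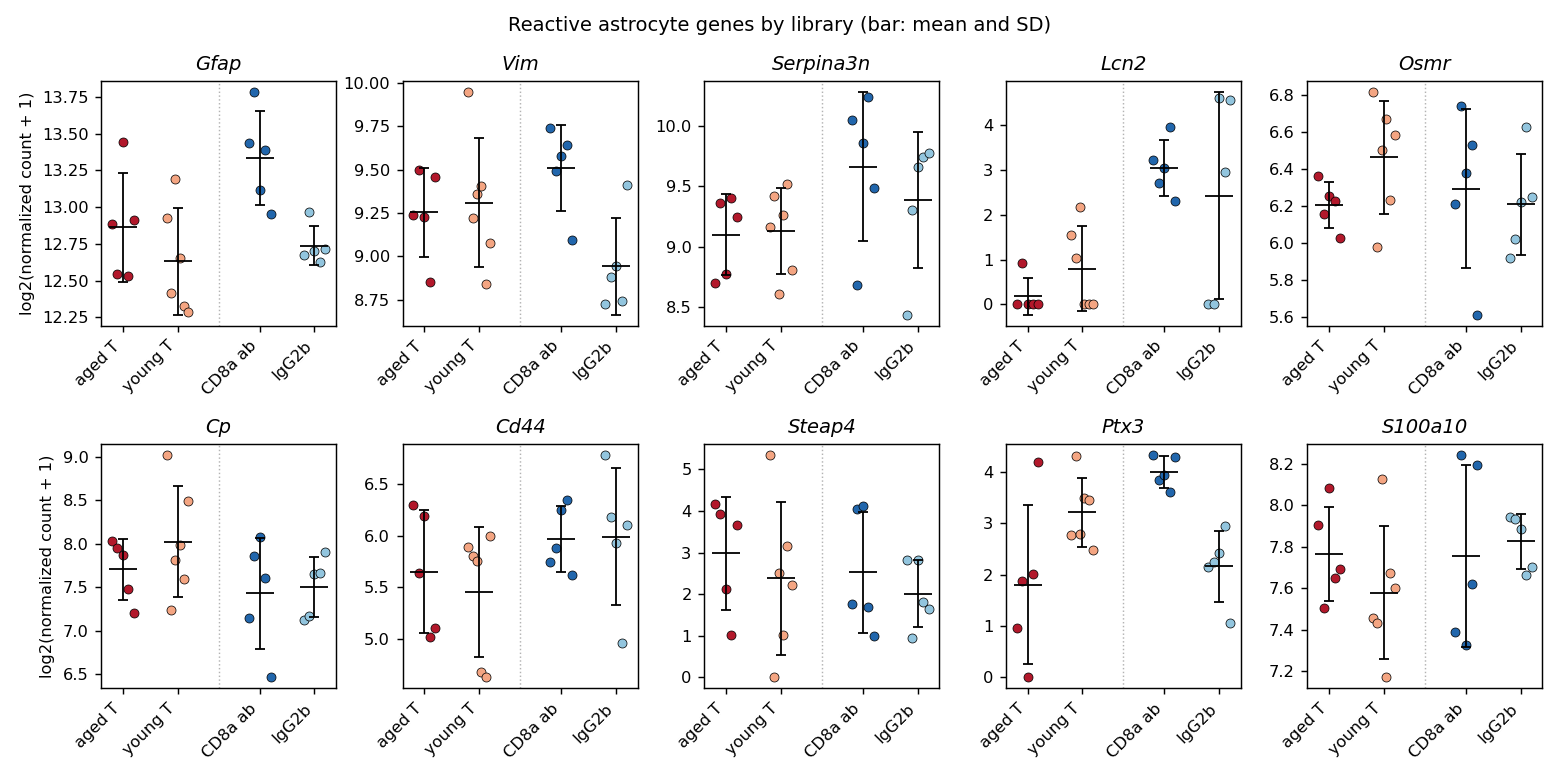
Normalized counts of the 10 genes in each library, on a log2(normalized count + 1) axis, with 1 point per library and bars for the mean and SD of each group. Gfap with the CD8a antibody runs between 7944 and 14083, against 6335 to 8001 with IgG2b, and the Ptx3 points of these 2 groups do not overlap.

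Ptx3 (chr3:66219910-66225805, plus strand) encodes pentraxin 3, a secreted pattern-recognition protein of the acute phase. It is weakly expressed, with 16, 12, 14, 10 and 19 reads in the CD8a antibody libraries, against 4, 4, 5, 8 and 1 in the IgG2b libraries. As normalized counts these were 19.2, 13.4, 14.4, 11.2 and 18.6 with the antibody, against 3.45, 3.72, 4.34, 6.71 and 1.07 with IgG2b. All 5 antibody libraries lay above all 5 IgG2b libraries, as did 0.743% of all genes without a filter. The means were 15.3 ± 3.45 with the antibody and 3.86 ± 2.02 with IgG2b (SD, n = 5 each), a ratio of 3.98, and the two-sided exact permutation p of 0.00794 is the smallest that 5 against 5 allows. The overall mean was just under 10, so Ptx3 had no test in the limma fit with the filter. Without the filter limma gave 1.84 ± 0.37 (SE) on the log2 scale with an adjusted p of 0.207, and DESeq2 gave 1.96 ± 0.51 (SE) with an adjusted p of 0.0273. With 1 library left out, the DESeq2 call was kept only without antibody replicate 5 (adjusted p = 0.0407) and was lost without antibody replicate 1 (0.156) or 3 (0.0669) or IgG2b replicate 1 (0.0732), 2 (0.0567), 3 (0.114) or 5 (0.111). The other 3 such fits gave Ptx3 no adjusted p. Veph1, which overlaps Ptx3 on the opposite strand, was nearly silent, at 0.822 normalized counts with the antibody and 0.747 with IgG2b.

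Serpina3n (chr12:104406729-104414329, plus strand), a secreted serine protease inhibitor, had 1055, 410, 928, 1210 and 717 normalized counts with the CD8a antibody and 346, 630, 809, 858 and 875 with IgG2b. Antibody replicates 1, 3 and 4 lay above every IgG2b library and the other 2 lay within the IgG2b range, with means of 864 ± 311 with the antibody and 704 ± 222 with IgG2b (SD, n = 5 each). The limma difference was 0.28 ± 0.29 (SE) on the log2 scale, with an adjusted p of 0.825. It was 0.04 without IgG2b replicate 1 and 0.52 without antibody replicate 2, and no such fit called it. Serpina3n lies in a cluster of close copies of the same gene family, and reads may have been split between them. Lcn2 (chr2:32384633-32388252, minus strand), which encodes the iron-siderophore carrier lipocalin 2, had 36 reads over the 5 antibody libraries and 56 over the 5 IgG2b libraries. Of the IgG2b reads most came from replicates 3 and 5, at 23.4 and 22.5 normalized counts, while replicates 1 and 2 held 0 reads. Lcn2 ranged from 3.92 to 14.5 with the antibody, and the sign of its difference depended on the tool, at 0.62 ± 0.86 (SE) by limma without a filter and -0.41 by DESeq2.

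Osmr (chr15:6813577-6874969, minus strand), the oncostatin M receptor, averaged 80.2 ± 21.7 normalized counts with the CD8a antibody and 74.1 ± 14.9 with IgG2b (SD, n = 5 each), or 0.09 ± 0.22 (SE) as a log2 difference. Cp (chr3:19957054-20009145, plus strand), the copper-carrying ferroxidase ceruloplasmin, averaged 184 ± 72.0 with the antibody and 185 ± 43.1 with IgG2b, a difference of -0.08 ± 0.27. Within the antibody group Cp ran between 87.2 and 268, wider than the gap between the groups. Hps3, which overlaps Cp on the opposite strand, averaged 177 with the antibody and 184 with IgG2b. Steap4 (chr5:7960457-7982213, plus strand), a metalloreductase, had 35 reads with the antibody and 20 with IgG2b. Those reads were uneven, since antibody replicates 2 and 3 held 15.6 and 16.4 normalized counts and the other 3 held 0.98 to 2.40. Cd44 (chr2:102811141-102901665, minus strand) averaged 62.8 ± 14.2 with the antibody and 67.6 ± 28.2 with IgG2b, a difference of -0.02 ± 0.28. S100a10 (chr3:93555080-93564643, plus strand) averaged 223 ± 68.9 with the antibody and 227 ± 20.5 with IgG2b, a difference of -0.07 ± 0.18, with antibody replicates 2 and 5 at 302 and 292 and the other 3 antibody libraries at 159 to 196. The limma 95% intervals of these genes were -0.38 to 0.55 for Osmr, -0.64 to 0.49 for Cp, -0.63 to 0.59 for Cd44 and -0.46 to 0.32 for S100a10. Without antibody replicate 5 the log2 differences were 0.26 for Osmr, 0.17 for Cp, 0.07 for Cd44 and -0.18 for S100a10, none of them called.

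Over the 7 tested genes the median log2 difference was 0.09, beside -0.00 over all tested genes, and it was 0.26 without antibody replicate 5 and -0.00 without antibody replicate 2. With the antibody 4 of the 7 were higher and 3 lower, while 49.6% of all tested genes were higher.

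**Figure D2:**
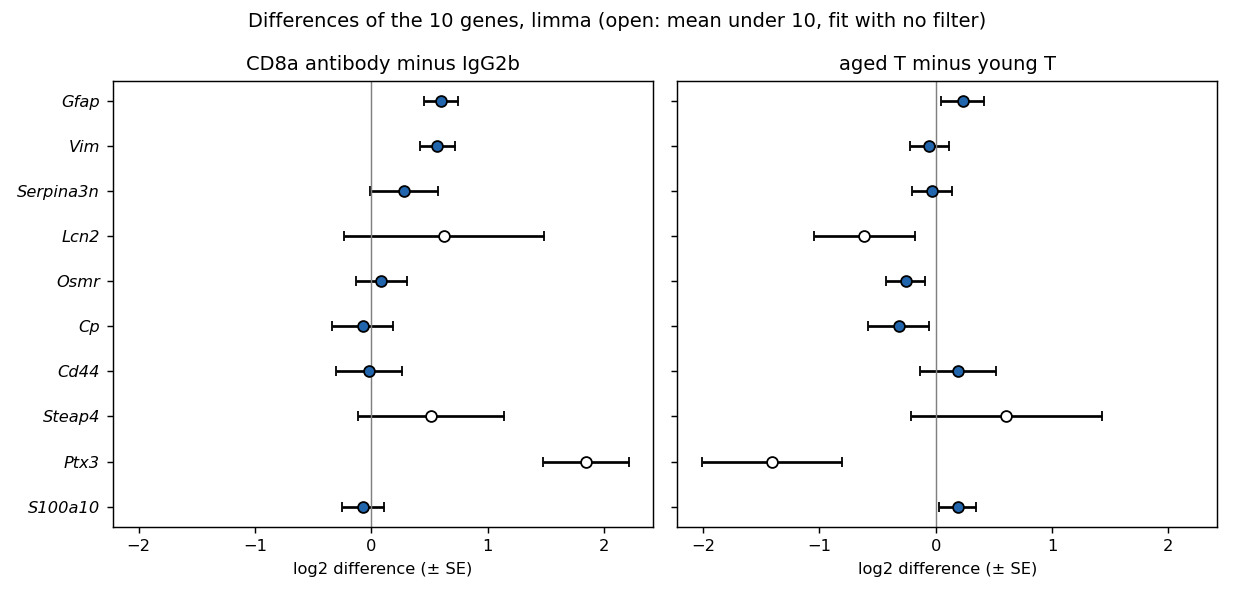
Log2 difference of each gene in the depletion experiment (CD8a antibody minus IgG2b) and the transfer experiment (aged T minus young T), as points with bars of 1 SE from limma, with open points for the weak genes fitted without the filter. The points of Gfap (0.60) and Vim (0.57) in the depletion experiment lie more than 2 SE above 0, and no other filled point lies that far from 0.

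In young recipients of aged T cells, none of the 10 genes passed a test against recipients of young T cells. By limma, 0 of 7 tested genes were called, beside 0% of 14162 tested genes, and 0 of the 7 had an unadjusted p under 0.05, beside 4.29% of all tested genes higher and 3.96% lower. Over all genes that was 1169 genes at an unadjusted p under 0.05 by limma, 1263 by edgeR and 1478 by DESeq2, and edgeR and DESeq2 also called 0 genes.

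Gfap had 7557, 5983, 11147, 5928 and 7698 normalized counts in recipients of aged cells, against 7785, 5451, 9341, 6437, 5134 and 4984 in recipients of young cells. The highest aged T library exceeded every young T library, but the other 4 lay within the young T range. Replicate 3 had the highest Gfap of each group, and also the highest sum of the 20 astrocyte identity genes. These sums were 227282 in an aged T range from 142621, and 212619 in a young T range from 144183. The Gfap means were 7663 ± 2120 in recipients of aged cells (SD, n = 5) and 6522 ± 1731 in recipients of young cells (SD, n = 6), a log2 difference of 0.23 ± 0.18 (SE) with a 95% interval of -0.16 to 0.62 and a limma adjusted p of 0.712. With libraries scaled to the astrocyte identity genes, the Gfap difference was 0.21. Vim had 604, 722, 598, 461 and 702 normalized counts in recipients of aged cells, against 986, 596, 655, 678, 458 and 539 in recipients of young cells. The Vim means were 617 ± 104 in recipients of aged cells and 652 ± 182 in recipients of young cells, which limma put at -0.05 ± 0.16 (SE) on the log2 scale, with an adjusted p of 0.943. The limma interval for Vim was -0.41 to 0.30. The 2 experiments contrast different treatments in animals of different ages, so the intervals of Gfap and Vim cannot be set against the depletion differences.

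Ptx3 had 1, 3, 0, 3 and 19 reads in recipients of aged cells, or 0.95, 2.67, 0, 3.04 and 17.2 normalized counts. In recipients of young cells it had 5.83, 18.9, 5.90, 10.3, 9.92 and 4.56 normalized counts, so 4 of 5 aged T libraries lay below every young T library and the fifth lay within their range. Without the filter, limma gave -1.41 ± 0.60 (SE) with an unadjusted p of 0.0345 and an adjusted p of 0.662, and DESeq2 gave -0.93 with an adjusted p of 0.828. Osmr was 64.3 to 81.3 in recipients of aged cells and 62.1 to 112 in recipients of young cells, with means of 73.1 ± 6.29 for aged T (SD, n = 5) and 88.9 ± 18.0 for young T (SD, n = 6). All 5 aged T libraries lay under the young T median of 92.3, and the log2 difference was -0.26 ± 0.17 (SE; limma adjusted p = 0.660).

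Cp averaged 213 ± 48.5 normalized counts in recipients of aged cells (SD, n = 5) and 283 ± 136 in recipients of young cells (SD, n = 6), which limma put at -0.32 ± 0.26 (SE) on the log2 scale, with an adjusted p of 0.724. Young T replicate 1 held the highest Cp value, 520, and without it the difference was -0.12. The same library was also highest of its group in Vim, Osmr and Steap4, where it held 41 of the 58 young T reads. It also had the highest sum of 13 fibroblast markers, 9057 normalized counts in a young T range of 2585 to 9057, against 2509 to 5845 in recipients of aged cells. All 13 lay lower in recipients of aged cells, as did 11 of 11 pericyte and smooth muscle markers, while 12 of 12 ependymal, 12 of 12 choroid plexus and 10 of 10 oligodendrocyte markers lay higher. The part of these cells in the values was not tested beyond the fibroblast and choroid plexus covariates of the closing section. Serpina3n, Cd44 and S100a10 had log2 differences of -0.03 ± 0.17, 0.19 ± 0.32 and 0.19 ± 0.16 (SE). Lcn2 was close to undetected, with 1 read in the 5 aged T libraries and 6 reads in the 6 young T libraries, and Steap4 had 51 reads in recipients of aged cells. The median over the 7 tested genes was -0.03, beside -0.00 over all tested genes, with 3 higher and 4 lower, where 49% of all tested genes were higher.

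Per kilobase of merged exons, a scale for a rough comparison of genes within an experiment, Gfap was the most abundant of the 10. The merged length counts every annotated exon of a gene, so it can exceed the length of the transcripts present. It averaged 2499 ± 561 normalized counts per kilobase with the CD8a antibody and 1623 ± 157 with IgG2b (SD, n = 5 each). Serpina3n followed at 419 ± 151 with the antibody and 341 ± 108 with IgG2b, then S100a10 at 184 ± 56.9 with the antibody and 187 ± 16.9 with IgG2b, and Vim at 155 ± 24.8 with the antibody and 105 ± 22.2 with IgG2b. In the antibody group S100a10 and Vim lay within their spread of each other, while with IgG2b they did not. Cp came next at 19.3 ± 4.51 with IgG2b, followed by Cd44 at 9.98 ± 4.15 and Osmr at 6.12 ± 1.23, the last 2 within their spread. Lcn2, Ptx3 and Steap4 were lowest with IgG2b, at 4.02 ± 4.46, 1.44 ± 0.752 and 1.12 ± 0.752, and did not differ beyond their spread, whereas Ptx3 stood at 5.72 ± 1.29 with the antibody. In the transfer experiment the order of the first 4 was the same, with Gfap at 1817 ± 503 per kilobase in recipients of aged cells (SD, n = 5) and 1546 ± 410 in recipients of young cells (SD, n = 6).

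Other genes of the reactive state were described by list in the depletion experiment, where 49.6% of all tested genes were higher with the antibody and their median was -0.00. None was called by limma. Of 11 tested genes known from astrocytes in neuroinflammation, 8 were higher and 3 lower, with a median log2 difference of 0.45. At an unadjusted p under 0.05, 4 of them were higher, beside 4.31% of all tested genes. Psmb8, an immunoproteasome subunit that other cells also express, averaged 97.1 ± 10.99 normalized counts with the CD8a antibody and 50.7 ± 8.20 with IgG2b (SD, n = 5 each). Its groups did not overlap, as in 0.782% of all tested genes higher with the antibody, its log2 difference was 0.93 and its limma adjusted p was 0.148, while DESeq2 called it at an adjusted p of 0.00149. H2-D1, a class I histocompatibility gene, averaged 878 ± 104 with the antibody and 620 ± 116 with IgG2b, and the interferon-induced GTPase Gbp2 averaged 56.5 ± 25.0 with the antibody and 25.6 ± 11.3 with IgG2b. Of the 7 tested genes of the ischaemic profile, 6 were higher and 1 lower, with a median of 0.45. At an unadjusted p under 0.05, 2 of them were higher and 1 lower, beside 4.31% of all tested genes higher and 4.15% lower. Tm4sf1, a membrane protein also made by endothelium, averaged 228 ± 28.6 with the antibody and 155 ± 15.7 with IgG2b, without overlap, at 0.55 ± 0.13 (SE) on the log2 scale (limma adjusted p = 0.233, DESeq2 adjusted p = 0.0190). In the same profile B3gnt5 lay lower, at 6.11 ± 3.82 with the antibody and 14.2 ± 4.72 with IgG2b, and Cd14, a lipopolysaccharide co-receptor, averaged 47.9 ± 7.86 with the antibody and 34.4 ± 9.36 with IgG2b. Of 4 other genes raised in both states, 3 were higher and 1 lower, among them Cxcl10 at 0.61, Aspg at 0.36 and Hspb1 at 0.30 on the log2 scale, and Timp1 was under the filter with 33 reads with the antibody and 16 with IgG2b.

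Relatives and binding partners of the 10 genes were counted the same way, and 19 of 24 were higher with the antibody and 5 lower, with a median of 0.31. At an unadjusted p under 0.05, 5 of the 24 were higher, beside 4.31% of all tested genes. Nes, the filament protein nestin, named after its values were seen, averaged 158 ± 43.8 normalized counts with the CD8a antibody and 96.1 ± 31.3 with IgG2b (SD, n = 5 each), or 0.74 as a log2 difference (limma adjusted p = 0.425). Des, the muscle filament protein desmin of vessel walls, averaged 27.1 ± 10.3 with the antibody and 12.1 ± 1.39 with IgG2b. S100a6, a calcium-binding relative of S100a10, averaged 150 ± 31.6 with the antibody and 93.0 ± 10.9 with IgG2b, a difference of 0.66 ± 0.17 (SE; limma adjusted p = 0.271), and DESeq2 called it at an adjusted p of 0.0348. Another relative, S100a16, averaged 869 ± 200 with the antibody and 588 ± 120 with IgG2b. Anxa2, whose protein binds that of S100a10, averaged 125 ± 24.5 with the antibody and 94.2 ± 22.0 with IgG2b (limma adjusted p = 0.565), beside the log2 difference of -0.07 for S100a10 itself.

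The signalling genes upstream of the reactive state followed in the depletion experiment. Of 18 tested genes of oncostatin M and interleukin-6 family signalling, 12 were higher and 6 lower with the antibody, with a median of 0.18. Stat3 averaged 674 ± 106 normalized counts with the CD8a antibody and 568 ± 65.6 with IgG2b (SD, n = 5 each). By limma its adjusted p was 0.657. Its feedback inhibitor Socs3 averaged 22.9 with the antibody and 17.8 with IgG2b, and Il11ra1, the interleukin-11 receptor, had a log2 difference of 0.39. Lifr, the leukaemia inhibitory factor receptor, went the other way, at 429 ± 99.4 with the antibody and 578 ± 99.8 with IgG2b (adjusted p = 0.507 by limma), and the shared receptor chain Il6st averaged 811 ± 235 with the antibody and 870 ± 94.7 with IgG2b. The ligands were near the floor of 3 reads, Osm with 9 reads over the 5 antibody libraries and 4 over the 5 IgG2b libraries, and Il6 with 3 in antibody libraries and 4 in IgG2b libraries. Among microglial inducers, Il1b and Tnf were under the filter and had no test. The 4 tested were all higher with a median of 0.36. The 12 microglial markers were also all higher, with a median of 0.34. Of these markers 7 were higher at an unadjusted p under 0.05, beside 4.31% of all tested genes. Of the 4 inducers, 3 were higher at an unadjusted p under 0.05. These were the C1q chains, with C1qc at 763 ± 93.3 with the antibody and 555 ± 74.6 with IgG2b, C1qb at 816 ± 86.5 with the antibody and 636 ± 64.7 with IgG2b, and C1qa at 1068 ± 131 with the antibody and 835 ± 114 with IgG2b. A list of 8 receptor genes covered interleukin-1, tumour necrosis factor, transforming growth factor and interferon-gamma. All 8 were higher with a median of 0.17, and 0 of 8 had an unadjusted p under 0.05. The tumour necrosis factor receptor Tnfrsf1a, the interleukin-1 receptor chain Il1rap and the transforming growth factor receptor Tgfbr2 had log2 differences of 0.31, 0.32 and 0.18.

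**Figure D3:**
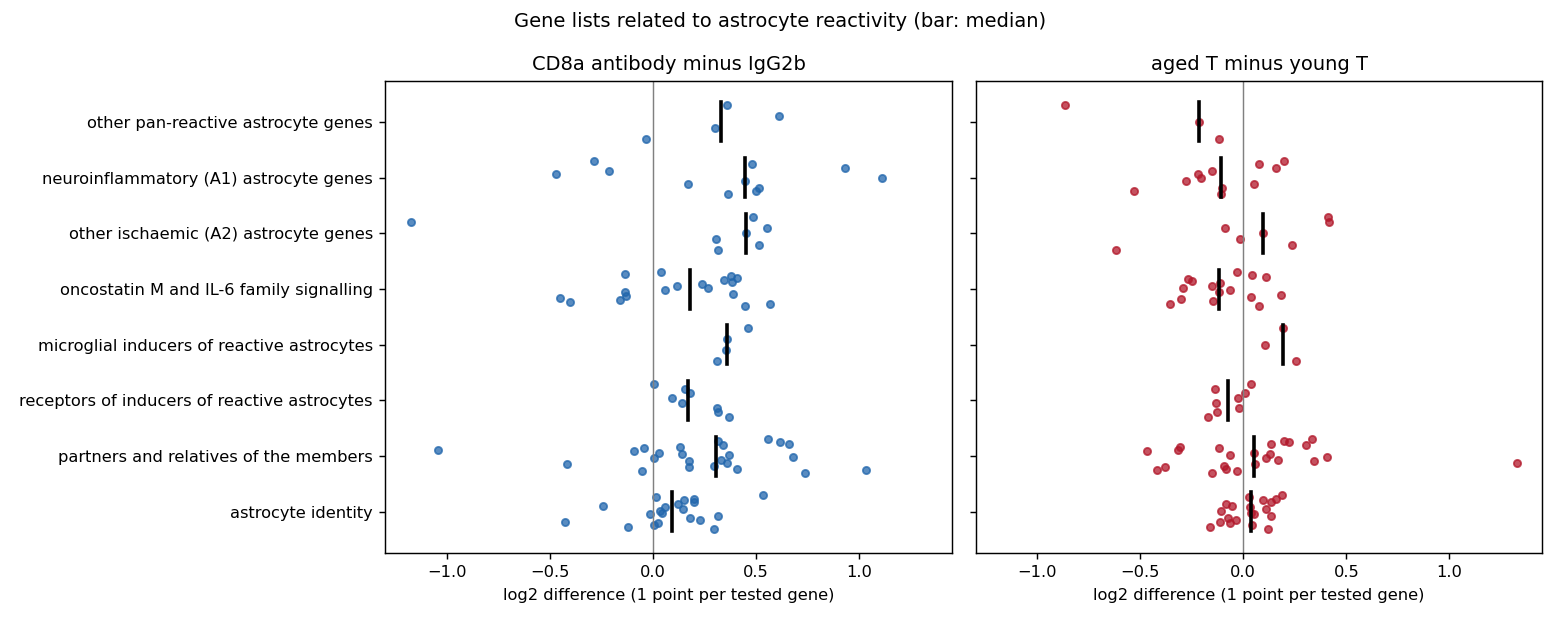
Log2 differences of the tested genes of each related list in both experiments, with 1 point per gene and a bar at the list's median. In the depletion experiment the medians run between 0.09 for the astrocyte identity genes and 0.45 for the neuroinflammatory and ischaemic profiles, and in the transfer experiment between -0.22 and 0.19.

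In the transfer experiment 0 genes of the same lists were called by limma, edgeR or DESeq2. Median log2 differences were -0.22 over 3 other genes raised in both states, -0.11 over 11 neuroinflammatory genes, 0.10 over 7 ischaemic genes, -0.12 over 16 signalling genes, 0.19 over 3 microglial inducers, -0.08 over 8 receptors and 0.05 over 24 relatives. Aspg, an asparaginase, averaged 13.9 ± 4.40 normalized counts in recipients of aged cells (SD, n = 5) and 26.5 ± 9.73 in recipients of young cells (SD, n = 6; limma adjusted p = 0.600). Lifr averaged 524 ± 74.0 in recipients of aged cells and 646 ± 83.2 in recipients of young cells, with 0 of 5 aged T libraries above the young T median (limma adjusted p = 0.600). Stat3 averaged 646 ± 55.6 in recipients of aged cells and 699 ± 47.3 in recipients of young cells. The other genes with the smallest p of each list had log2 differences between -0.62 for Sphk1, which makes sphingosine 1-phosphate, and 0.42 for B3gnt5. They included the complement inhibitor Serping1 at -0.53, the interleukin-6 receptor Il6ra at -0.36, Ahnak at -0.38, S100a16 at 0.33, C1qa at 0.25 and Il1rap at -0.13.

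Markers of astrocytes and of other cells also lay higher or lower beside Gfap, Vim and Ptx3 in the depletion experiment. Of 20 tested astrocyte identity genes, 16 were higher with the antibody and 4 lower, with a median of 0.09 and 0 at an unadjusted p under 0.05. The water channel Aqp4 averaged 1876 ± 592 with the CD8a antibody and 1543 ± 271 with IgG2b (SD, n = 5 each), and the folate enzyme Aldh1l1 741 ± 184 with the antibody and 598 ± 107 with IgG2b. The glutamate transporter Slc1a2 averaged 26079 ± 13514 with the antibody and 24825 ± 3792 with IgG2b. The smallest p belonged to the gap junction gene Gjb6 at -0.43, the growth factor receptor Fgfr3 at -0.24 and the lipid carrier Fabp7 at 0.53. With libraries scaled to these genes, a setting added after the data were seen, the log2 difference was 0.51 for Gfap (limma adjusted p = 0.555) and 0.48 for Vim. All 12 microglial markers were higher and summed to 5602 to 7474 normalized counts with the antibody and 4838 to 5914 with IgG2b. All 10 oligodendrocyte markers were higher and summed to 52369 to 100806 with the antibody and 50324 to 64580 with IgG2b. All 10 tested ependymal markers were higher, with a median of 0.45, where 49.6% of all tested genes were higher. At an unadjusted p under 0.05, 2 of them were higher, beside 4.31% of all tested genes. The 12 ependymal markers listed summed to 258 to 818 with the antibody and 211 to 613 with IgG2b. Endothelial markers were higher in 11 of 13, at 2684 to 4055 with the antibody and 2737 to 2832 with IgG2b, and fibroblast markers in 11 of 13, at 1812 to 4102 with the antibody and 2368 to 3323 with IgG2b. Of 10 tested pericyte and smooth muscle markers, 7 were higher and 3 lower, and 3 were higher at an unadjusted p under 0.05. Among single markers DESeq2 called the smooth muscle actin gene Acta2 higher, at 222 ± 85.1 with the antibody and 99.8 ± 19.5 with IgG2b, and Opalin of oligodendrocytes higher, at 394 ± 101 with the antibody and 196 ± 87.5 with IgG2b. It called decorin (Dcn), a matrix protein listed among the fibroblast markers, lower, at 351 ± 151 with the antibody and 803 ± 128 with IgG2b. This was unlike the 11 of 13 fibroblast markers that were higher, and the cells that made Dcn here were not tested. The DESeq2 adjusted p was 0.00537 for Acta2, 0.0348 for Opalin and 0.00185 for Dcn, while limma called none of them (adjusted p = 0.175 to 0.252). Of 10 neuronal markers 8 were lower. All 12 choroid plexus markers were higher, but 4 of 5 IgG2b libraries and antibody replicates 4 and 5 held 2451 to 7896 normalized counts and the other 4 libraries 27952 to 45486. Ttr, their most abundant gene, averaged 14935 ± 13307 with the antibody and 7158 ± 10036 with IgG2b. Markers of granulocytes and monocytes, another source of Lcn2 and Ptx3, summed to 8.82 to 72.4 with the antibody and 9.66 to 44.4 with IgG2b, and Retnlg was at 0. Apart from the covariate fits in the closing section, the part of these cells in the result was not tested.

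Markers of ventral hippocampus also lay lower with the antibody. This set of 4 genes (Nr2f2, Trhr, Grp and Htr2c) was chosen after the data were seen. It summed to 823 to 1465 normalized counts with the antibody and 1508 to 1946 with IgG2b, without overlap. All 4 were lower at an unadjusted p under 0.05, beside 4.15% of all tested genes. Because of that choice, neither the p-values nor the lack of overlap is independent support. DESeq2 called Nr2f2 (adjusted p = 0.0394) and limma did not (adjusted p = 0.245). A set of 3 dorsal genes (Spink8, Lct and Wfs1), also chosen after the data were seen, summed to 1676 to 2792 with the antibody and 1416 to 2282 with IgG2b. With ventral minus dorsal marker level as a covariate, limma gave log2 differences of 0.83 for Gfap (adjusted p = 0.214) and 0.54 for Vim (adjusted p = 0.446). Because the ventral sums did not overlap between the groups, this fit cannot tell tissue region and antibody apart.

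**Figure D4:**
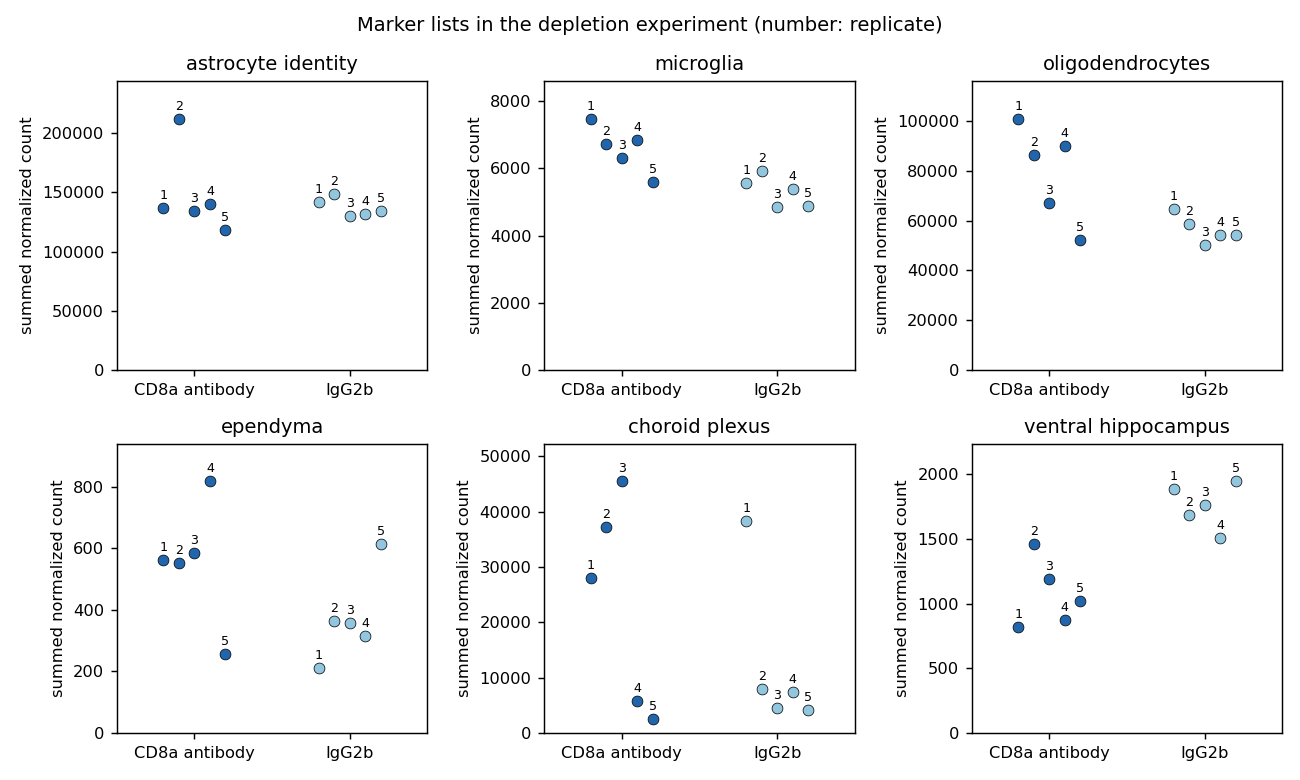
Summed normalized counts of cell type and region markers in each library of the depletion experiment, on linear axes from 0, with 1 numbered point per library and CD8a antibody left of IgG2b. Microglial sums reach 7474 with the antibody against 5914 with IgG2b, and the ventral hippocampus sums do not overlap, at 823 to 1465 with the antibody and 1508 to 1946 with IgG2b.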

How the data were processed

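RNA of 21 hippocampal libraries, strand-specific, polyA-selected and paired-end per the labels' protocols, was deposited as 2 tables of 24411 genes. The submitters' processing notes name STAR, RSEM, DESeq2 and mm10, with no versions or roles. No annotation or counting option, strand included, is given in the sources used here, so reads of overlapping genes may be shared. Per the file headers and values, the deposited signal is a normalized count, that is, reads over a size factor of the library, and 100% of values were whole reads (tolerance 1e-06). The authors' deposited log2 fold changes, with their p-values, are signed control over treated, the opposite of the sign used here. The authors' deposited mean signal over libraries and their test score (fold change over its standard error) were not used.

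Each experiment was tested alone by the trend method of limma (version 3.58.1, run in R version 4.3.3) after taking log2(normalized count + 1), a scale that understates changes of weak genes. Genes with a mean of at least 10 were tested, with Benjamini-Hochberg adjustment over all tested genes and a threshold of 0.05. The unit is a normalized count, so limma replaced the count test. On recovered reads, DESeq2 1.42.0, limma-voom and the quasi-likelihood test of edgeR 4.0.16, and also other filters, scalings and covariates, and leaving out each library were alternatives. Detection floors (3 reads) and depths cover counting error only. No library was a duplicate of another: the smallest chi-square per degree of freedom between members of 1 group was 7.11. Exact tests are two-sided. The 10 genes, the other lists and the rules were chosen with earlier results of these data known. All 10 genes are described in each experiment, with every library's value for Gfap, Vim and Ptx3, the genes with an unadjusted p under 0.05 or a call by a tool, and values or ranges for the rest. For the depletion experiment, genes that DESeq2 called in a list, the 3 with the smallest p in each astrocyte or signalling list, and a fixed set (such as Stat3, Osm, Aqp4 and Timp1) are named. Cell type lists are otherwise given by counts and sums, and some genes of the transfer experiment that the naming rule takes are not printed. Positions and exon lengths are from GENCODE M21 on GRCm38.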

Additional observations from a re-analysis of the deposited data

Results flagged for a closer look

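Of 40 groups of library values, 1 per gene and group, 5 held a library set far from the others by Dixon's test, and chance flags about 1 in 20 groups. In recipients of young cells, Steap4 stood at 39.82 normalized counts in replicate 1 (41 reads), with the next library at 7.937. In recipients of aged cells, Ptx3 stood at 17.21 normalized counts in replicate 5 (19 reads), with the next at 3.042, and Lcn2 at 0.8909 in replicate 2, which is 1 read. In the IgG2b group, Gfap stood at 8001 in replicate 2 with the next library at 6709, and Vim at 679.5 in replicate 5 with the next at 491.5. No gene had a difference in effect tested between the experiments, which use animals of different ages and were tabulated separately.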

How the results depend on the processing

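No paired analysis was possible because replicates are numbered by record order and carry no pairing. The number of genes called in the transfer experiment was 0 under every setting that used all libraries, and 0 to 4 with 1 library left out, the 4 by DESeq2 without aged T replicate 2. In the depletion experiment it was 1 (limma), and 0 without a filter, 92 by DESeq2, 3 with a choroid plexus covariate, 0 with a ventral minus dorsal covariate and 0 to 303 with 1 library left out; the cause was not tested. Without CD8a antibody replicate 5, limma called 25 genes and DESeq2 303, and without IgG2b replicate 3 DESeq2 called 25. The median over the tested genes was -0.03 in the transfer experiment, 0.18 with a fibroblast covariate and -0.10 to 0.08 with 1 library left out. In the depletion experiment it was 0.09, 0.36 with the ventral minus dorsal covariate and -0.01 to 0.26 with 1 library left out. Gfap and Vim kept their direction in every fit of the depletion experiment. Ptx3 kept its direction in limma without the filter, in the 3 fits on recovered reads, and in the leave-out fits with DESeq2 or without a filter. It was under the filter and had no value in the covariate and astrocyte-scaled fits. In the transfer experiment the fibroblast covariate turned Vim to 0.15 and Cp to 0.18, and DESeq2 gave Steap4 -0.0044. In the depletion experiment the ventral minus dorsal covariate turned Serpina3n to -0.85, Cp to 0.11, Cd44 to 0.36 and S100a10 to 0.58, DESeq2 turned Lcn2 to -0.41, astrocyte scaling turned Osmr to -0.0023 and edgeR turned Cp to 0.0048. With 1 library left out, the log2 difference spanned 0 for Vim (-0.16 to 0.078), Serpina3n (-0.14 to 0.067) and, by DESeq2 only, Steap4 (-0.32 to 1.46) in the transfer experiment. In the depletion experiment it did so for Osmr (-0.026 to 0.26), Cp (-0.24 to 0.18), Cd44 (-0.30 to 0.17) and S100a10 (-0.19 to 0.078). For Lcn2 it did so by DESeq2 (-0.75 to 0.13) and not by limma without a filter (0.019 to 1.17). The astrocyte scaling, the ventral minus dorsal covariate and the leave-out fits with DESeq2 or without a filter were chosen after seeing the data. Depth limits Lcn2, Steap4 and Ptx3, which have few reads per library.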
